A study of Homo sapiens with 91 samples.

Results

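The genes described here encode the centromere and the kinetochore: 41 genes for the CENP-A nucleosome and its loading, the inner kinetochore, the microtubule-binding outer kinetochore, the spindle checkpoint and the chromosomal passenger complex. They were chosen by name and function, not by any measured value, and are 41 of the 57820 gene identifiers in the deposited files. A mean of at least 10 CPM (exonic barcodes scaled to a common library total after correction by library factors) over all libraries was required for testing. It was reached by 39 of the 41 genes and by 9992 genes in all. CENPN and OIP5 fell under it.

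The libraries came from HEK293T, a human embryonic kidney line that carries the SV40 large T antigen, and were made with MATQ-seq, a total-RNA single-cell method that tags molecules with random barcodes. The groups were 38 single cells of clone1 and 10 pool-and-split averaged aliquots of clone1, which are portions the size of a cell taken from pooled cells. The labels give no treatment, no time point and no cell cycle stage, and they do not say whether cells and aliquots shared a culture or a day, or how many pools the aliquots came from. The cells are 1 clone, so for a comparison of mean levels each group counts as 1 sample. Only the spread among libraries was tested, and its p-values measure the spread between these libraries.

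The kinetochore is the protein assembly that links a chromosome to spindle microtubules. It is built on nucleosomes that carry the histone H3 variant CENP-A, over which the constitutive centromere-associated network (CCAN) sits throughout the cell cycle. In mitosis the outer kinetochore, made of the KNL1, MIS12 and NDC80 complexes, grips microtubules, a fibrous corona forms outside it, and the checkpoint delays anaphase until all chromosomes are attached. Many outer and corona proteins accumulate in G2 and mitosis and are then degraded, whereas several centromere proteins are present in every phase. An averaged aliquot mixes pooled cells, so the spread among aliquots leaves out most of the differences from cell to cell.

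Depth was 231131 ± 51823 exonic barcodes per single cell (SD, n = 38; 128322 to 326476) and 188547 ± 41723 per aliquot (SD, n = 10; 152542 to 275215). IRS4, which marks HEK293 cells, was seen in all 38 cells and all 10 aliquots. VIM, another marker of the line, was also seen in every library. NEFM was seen in 36 cells and 10 aliquots, KRT18 in 36 cells and 8 aliquots, and KRT8 in 24 cells and 5 aliquots. The summed level of 9 markers of MCF10A, the other line of the study, was 0 to 60.5 CPM in cells and 0 to 29.8 CPM in aliquots, with KRT17 and KRT6A at 0 in every library. CDH3 was the most often seen of these markers, in 17 cells and 5 aliquots, and SFN was seen in 13 cells and 1 aliquot. Cell 15 stood apart as the shallowest library, with the lowest summed level of the kinetochore genes and the lowest G2/M score. Among the results computed with each library left out, those that moved without it are given both ways. The spread of the summed level and its correlations with the scores were computed only with cell 15 included.

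Over all 41 genes, the single cells had a wider range than the aliquots around nearly the same mean. The summed level ran from 1985 CPM in cell 15 over a median of 3417 CPM to 4835 CPM in cell 30, against 3087 to 3746 CPM with a median of 3544 CPM in the aliquots. The means were 3476 ± 592 CPM in cells (SD, n = 38) and 3500 ± 226 CPM in aliquots (SD, n = 10), a log2 ratio of -0.01. The CV of the sum (coefficient of variation, the SD over the mean) was 17.03% in cells and 6.46% in aliquots, a difference that was not tested. A larger CV in cells was not particular to these genes. The summed HEK293 markers had 35.2% in cells and 12.6% in aliquots, and kinetochore genes outside the 41 had 29.8% and 9.74%. Above every aliquot lay 12 cells and below every aliquot 10 cells, with 16 cells inside the aliquots' range. The summed level followed the G2/M score of the cells with a Spearman correlation of 0.879 and the G1/S score with -0.603 over 38 cells. A score is the average, over 39 tested G2/M genes or 41 tested G1/S genes, of log2 CPM standardised across the cells, lists that hold none of the kinetochore genes. The points share their libraries, and the summed level also correlated with exonic barcodes at 0.327. Without CENPE and CENPF, which made up 21.01% of the summed level, the correlation with the G2/M score was 0.542 and with the G1/S score -0.175.

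**Figure D1:**
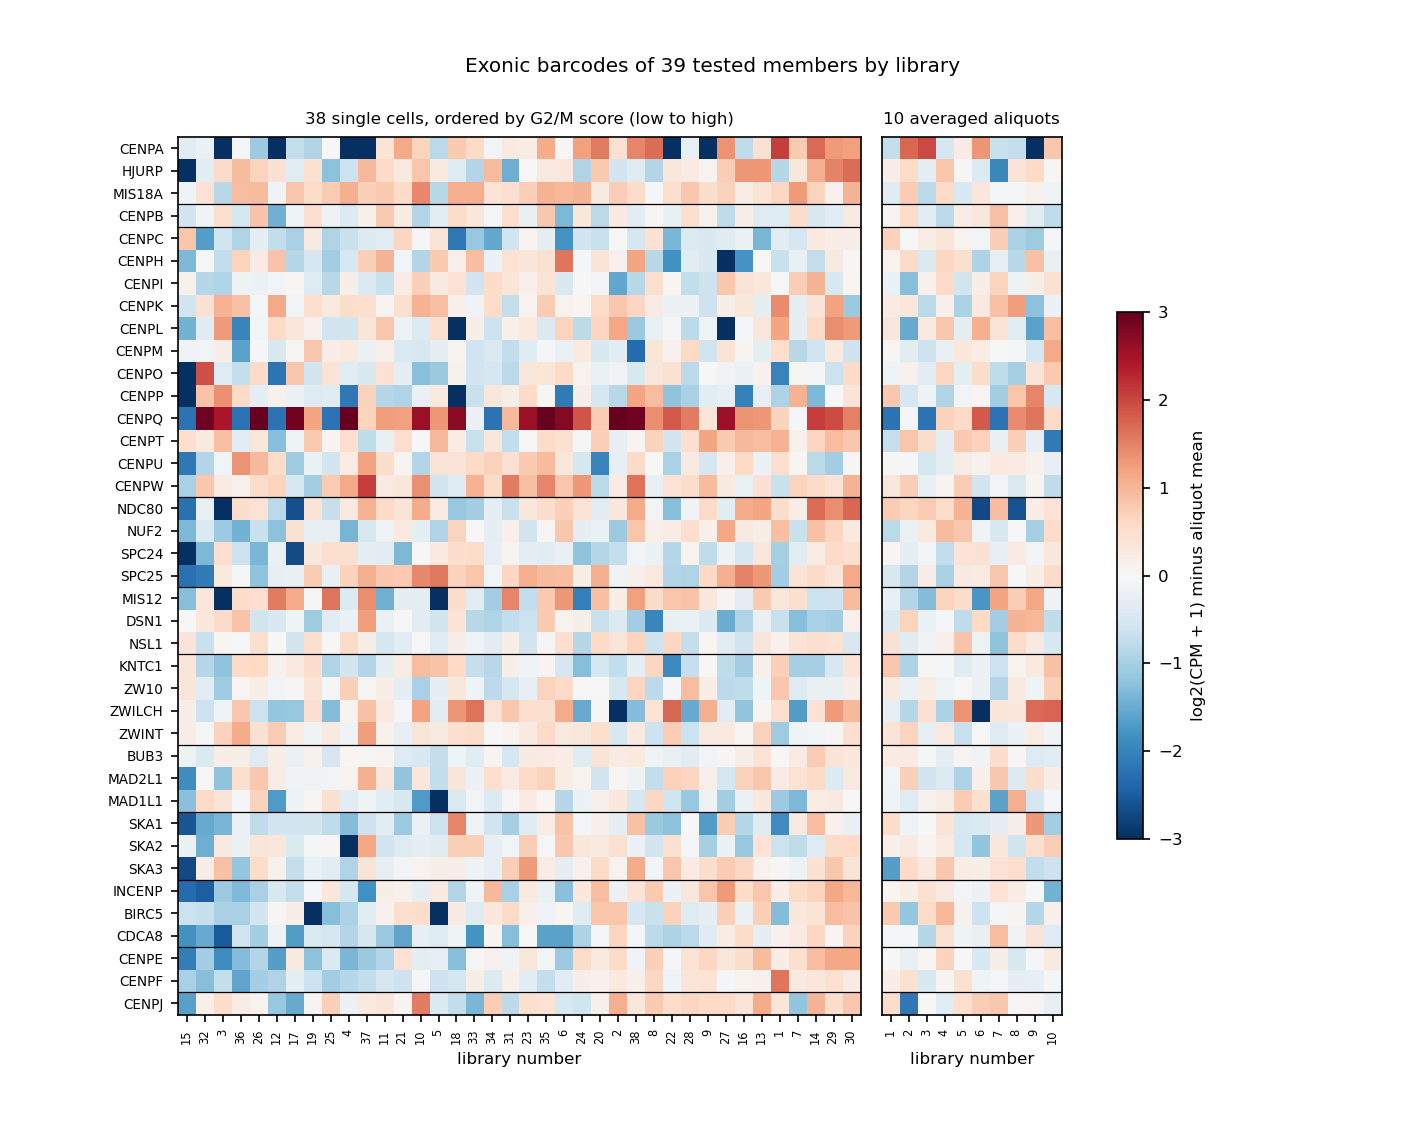
Level of each of the 39 tested genes (rows, grouped by role with lines between groups) in each library (columns), as log2(CPM + 1) minus the mean of the 10 aliquots. The 38 cells stand left, ordered by G2/M score from cell 15 to cell 30, and the 10 aliquots right; the rows from INCENP to CENPF turn from blue to red along the cells.

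No single gene passed the test of spread after adjustment over all genes. Spread was compared by a negative-binomial likelihood-ratio test of a separate dispersion for cells and aliquots against a shared one, with Benjamini-Hochberg adjustment over 9992 genes. It called 0 of the 39 genes as more spread in cells at an adjusted p under 0.05, where the background was 0.23% of all tested genes, and 0 as more spread in aliquots, with a background of 0.01%. Limma on absolute deviations called 0 in either direction, against 0% and 0.03% of all genes. At an unadjusted p under 0.05 the dispersion test found 5 of 39 genes more spread in cells (12.8%, background 6.86%), namely CENPU, SPC24, INCENP, CENPE and CENPF, and 0 more spread in aliquots (background 2.38%). Limma found 3 of the 5, CENPU, CENPE and CENPF (7.69%, background 3.67%), and 0 in aliquots (background 3.54%). The CV of CPM was larger in cells for 27 of 39 genes, or 69.2%, against 56.7% of all tested genes. Its median ratio, cells over aliquots, was 1.11 for these genes and 1.05 for all genes. At 50 CPM or more the share was 64.3% of 28 kinetochore genes, against 63.0% of 5170 tested genes. The median ratios there were 1.13 and 1.11. Under 50 CPM the share was 81.8% of 11 kinetochore genes, against 49.9% of 4822 tested genes, with median ratios of 1.03 and 0.999.

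**Figure D2:**
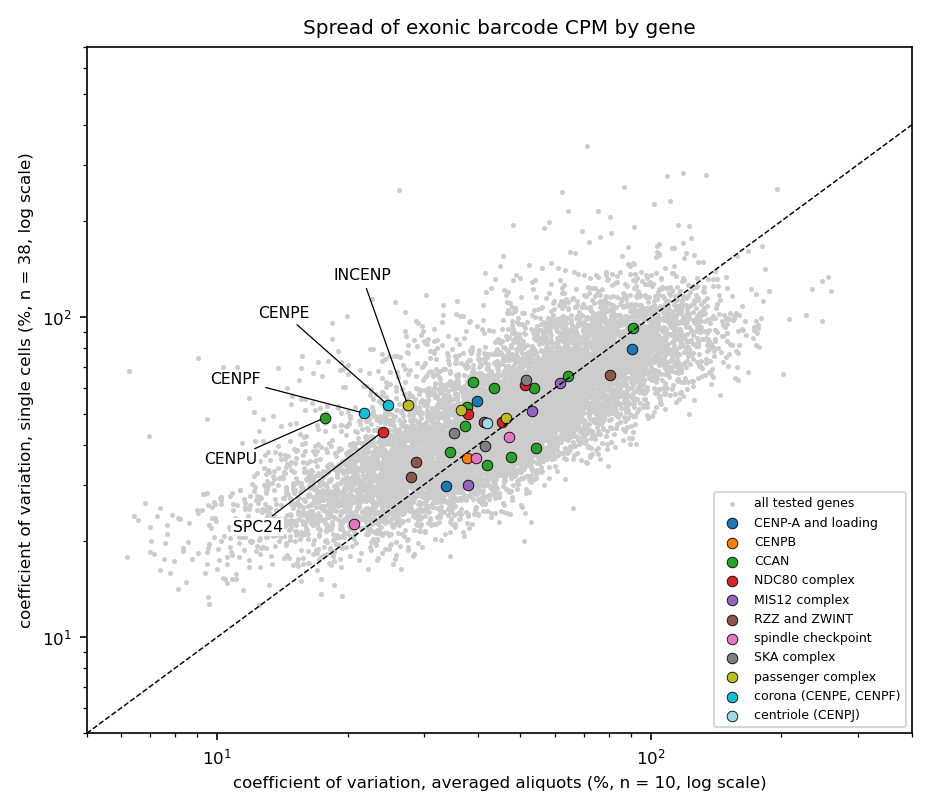
CV of CPM among the 38 single cells (vertical, log scale) against the CV among the 10 aliquots (horizontal, log scale) for each tested gene, with the kinetochore genes coloured by role and the dashed line marking equal CVs. The 5 labelled genes, with unadjusted p under 0.05, have CVs of 43.9% to 53.1% in cells and 17.7% to 27.5% in aliquots.

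The corona genes had the highest correlations with the G2/M score. CENPF, a large coiled-coil protein of the corona that accumulates in G2, ran from 175 CPM over a median of 457 CPM to 1609 CPM in the cells, against 380, 506 and 727 CPM in the aliquots. The groups overlapped in 21 cells, while 15 cells lay below every aliquot and 2 above, and cell 1 had 1609 CPM where the next cell, cell 8, had 807 CPM. The CV of CENPF was 50.1% in cells and 21.8% in aliquots, with p = 0.0203 and adjusted p = 0.430 in the dispersion test. Leaving out cell 1 lowered the ratio of CVs to 1.63, against 2.30 with it, with p = 0.0728. CENPE, the kinesin that carries chromosomes to the spindle equator, had 53.7 CPM in its lowest cell, a median of 227 CPM and 514 CPM in its highest, against 165, 229 and 367 CPM in the aliquots. Below every aliquot lay 12 cells, among them cells 15, 3 and 12, and 5 cells, led by cells 29 and 30, lay above. Its CV was 53.1% in cells and 24.8% in aliquots (dispersion test, p = 0.00503, adjusted p = 0.284). The ratio of 2.14 was 3.11 without aliquot 4 and 2.02 without aliquot 3, the highest and lowest with 1 library left out. Over 38 cells CENPF correlated with the G2/M score at 0.851 and with the G1/S score at -0.719, and CENPE at 0.831 and -0.813. With each cell left out in turn, the G2/M values stayed between 0.838 and 0.863 for CENPF and between 0.817 and 0.863 for CENPE.

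The chromosomal passenger complex, which corrects faulty attachments through the kinase AURKB, came next. INCENP, its scaffold, had 33.99 CPM in cell 32, a median of 216 CPM and 475 CPM in cell 27, against 71.8, 212 and 270 CPM in the aliquots. Above every aliquot lay 11 cells and below 3, and aliquot 10, at 71.8 CPM, stood apart from the other aliquots, of which the lowest had 173 CPM. The CV of INCENP was 53.1% in cells and 27.5% in aliquots (dispersion test, p = 0.0385, adjusted p = 0.509). Without aliquot 10 the ratio of CVs was 3.50, against 1.93 with it, with p = 0.000297 and adjusted p = 0.113. Leaving out other libraries lowered the ratio to as little as 1.81, without aliquot 2. It raised the unadjusted p of the dispersion test to as much as 0.0738. CDCA8, or borealin, a subunit that targets the complex to centromeres, had 18.3, 79.9 and 177 CPM in its lowest, median and highest cell, against 60.8, 104 and 211 CPM in the aliquots. Below every aliquot lay 14 cells and above them 0, and its CV was 51.2% in cells and 36.5% in aliquots (dispersion test, p = 0.184, adjusted p = 0.727). The correlation with the G2/M score over 38 cells was 0.764 for INCENP, 0.637 for CDCA8 and 0.514 for BIRC5, or survivin. BIRC5 is the remaining subunit among the genes chosen here. AURKB was not among them and was tested with the other kinetochore genes. Its CV was 36.9% in cells and 33.96% in aliquots (dispersion test, p = 0.595, adjusted p = 0.914). BIRC5 was picked out after its values were seen; its mean was 49.4 ± 23.9 CPM among the cells and 54.0 ± 25.1 CPM among the aliquots.

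**Figure D3:**
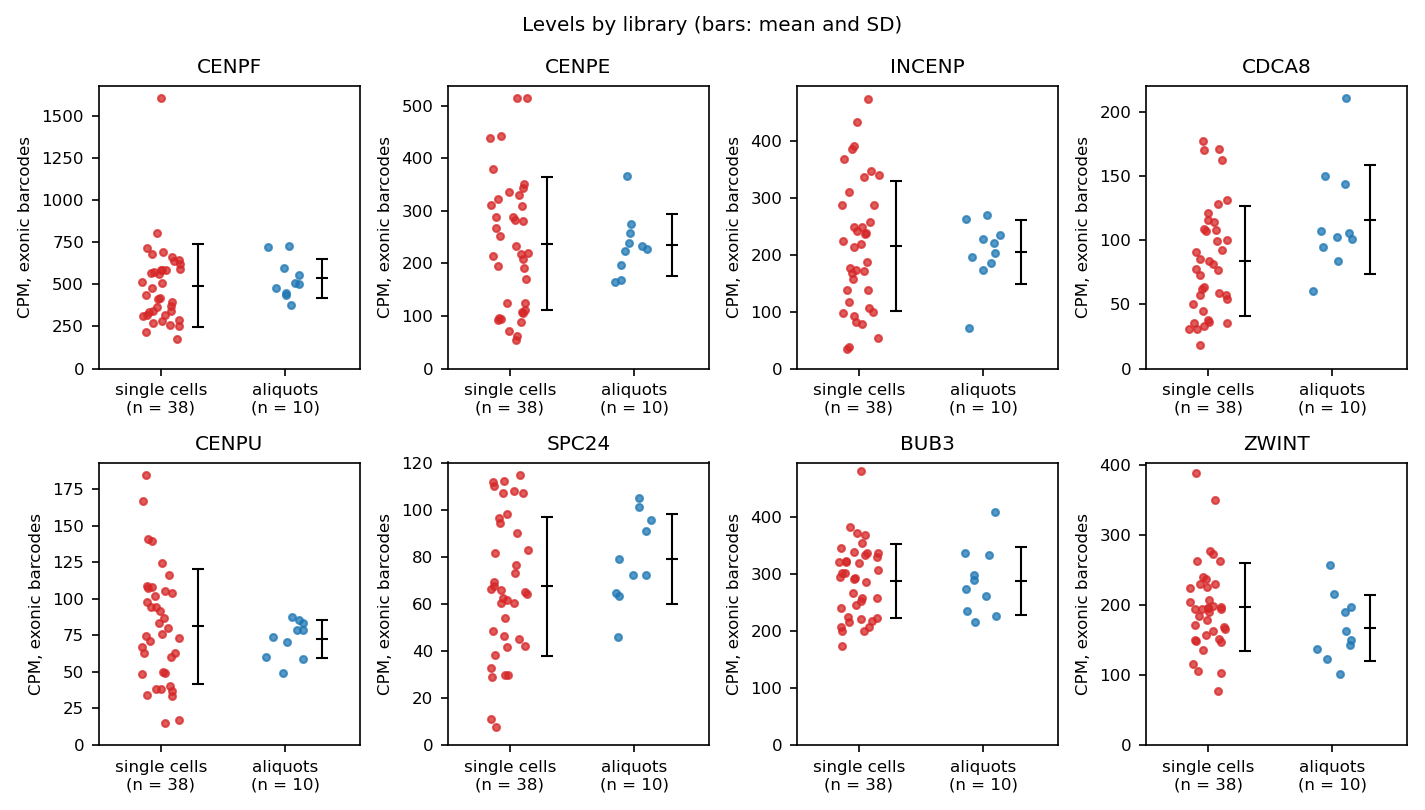
Level in CPM of 8 genes in each single cell (red, n = 38) and each aliquot (blue, n = 10), with bars for the mean and SD. CENPF, CENPE, INCENP, CDCA8, CENPU and SPC24 have CVs of 43.9% to 53.1% in cells and 17.7% to 36.5% in aliquots, a difference that passed the adjusted test for none of them, and BUB3 and ZWINT have CVs of 22.5% and 31.7% in cells against 20.6% and 28.02% in aliquots.

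Promoters of 5 genes are shown because these genes had, among the named ones with an entry in the promoter table, the highest mean correlation with the other kinetochore genes. BUB3 and CENPJ, with values of 0.166 and 0.130 that would place them among the 5, had no entry. Genes that rise toward mitosis often carry a cell cycle homology region (CHR, searched as TTTGAA and TTCGAA) and CCAAT boxes (CCAAT), and the capitals mark matches to either motif on either strand. Each line is 250 bases before to 50 bases after the gene's start in RefSeq, GRCh38.p14, read 5′ to 3′ on the gene's strand. HJURP lies at chr2:233854486-233854785 (minus strand), CENPE at chr4:103198294-103198593 (minus), CDCA8 at chr1:37692266-37692565 (plus), SKA3 at chr13:21176503-21176802 (minus) and INCENP at chr11:62123761-62124060 (plus).
HJURP: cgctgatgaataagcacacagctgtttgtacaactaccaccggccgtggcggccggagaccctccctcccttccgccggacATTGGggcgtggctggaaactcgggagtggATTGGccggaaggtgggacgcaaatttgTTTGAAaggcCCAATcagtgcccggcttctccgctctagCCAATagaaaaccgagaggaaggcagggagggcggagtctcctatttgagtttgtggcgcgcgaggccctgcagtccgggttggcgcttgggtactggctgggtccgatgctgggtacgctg
CENPE: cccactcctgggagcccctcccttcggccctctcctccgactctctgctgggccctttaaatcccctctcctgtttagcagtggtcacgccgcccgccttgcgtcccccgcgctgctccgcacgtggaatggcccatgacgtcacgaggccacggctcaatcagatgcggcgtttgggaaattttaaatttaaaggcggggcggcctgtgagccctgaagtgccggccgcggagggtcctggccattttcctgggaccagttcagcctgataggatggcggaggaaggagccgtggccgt
CDCA8: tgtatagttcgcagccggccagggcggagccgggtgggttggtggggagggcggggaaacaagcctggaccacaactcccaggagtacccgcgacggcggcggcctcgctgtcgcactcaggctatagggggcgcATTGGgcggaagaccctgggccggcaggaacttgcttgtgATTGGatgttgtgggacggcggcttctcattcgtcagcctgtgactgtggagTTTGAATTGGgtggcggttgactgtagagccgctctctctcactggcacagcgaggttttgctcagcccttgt
SKA3: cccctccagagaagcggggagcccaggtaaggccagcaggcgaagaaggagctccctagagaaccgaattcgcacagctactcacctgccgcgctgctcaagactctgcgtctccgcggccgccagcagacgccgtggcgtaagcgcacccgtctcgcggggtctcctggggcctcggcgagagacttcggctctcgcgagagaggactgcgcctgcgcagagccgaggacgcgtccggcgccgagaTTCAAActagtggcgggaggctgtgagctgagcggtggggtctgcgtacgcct
INCENP: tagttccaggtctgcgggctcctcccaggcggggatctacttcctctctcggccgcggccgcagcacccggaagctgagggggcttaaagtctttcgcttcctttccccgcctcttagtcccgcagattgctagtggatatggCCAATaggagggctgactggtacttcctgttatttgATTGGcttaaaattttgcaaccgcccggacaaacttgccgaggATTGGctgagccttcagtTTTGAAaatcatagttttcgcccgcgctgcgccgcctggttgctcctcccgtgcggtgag

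Matches to the CHR words lay in 18 of the 33 kinetochore genes found in the promoter table, or 54.5%, against 19.5% of its 27305 genes. CCAAT lay in 21 (63.6%, against 39.7%), and both motifs in 13 (39.4%, against 7.85%). Further searches covered GGCGG, the core of the cell cycle dependent element, with 32 of 33 genes (97.0%, against 61.5%), and the E2F words TTTCCCGC, TTTGGCGC, TTTCGCGC and TTTGCCGC, with 4 of 33 (12.1%, against 3.99%). A gene counted where any of its listed starts held a match on either strand. The TTTGAA of CDCA8 shares its last base with an ATTGG, the CCAAT box on the other strand, and that of INCENP starts 10 bases before the gene's start. In SKA3 the match, TTCAAA, is on the other strand. CENPE, with a G2/M correlation of 0.831, held no match to the CHR words or to CCAAT in this window. Among the 31 tested genes in the table, the median correlation with the G2/M score was 0.326 for the 16 with a CHR match and 0.0634 for the 15 without. For CCAAT it ran the other way, at 0.0962 for the 19 genes with a match and 0.335 for the 12 without. CENPH, CENPL, CENPM, MIS18A, KNTC1, BUB3, BIRC5 and CENPJ had no entry in the table.

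**Figure D4:**
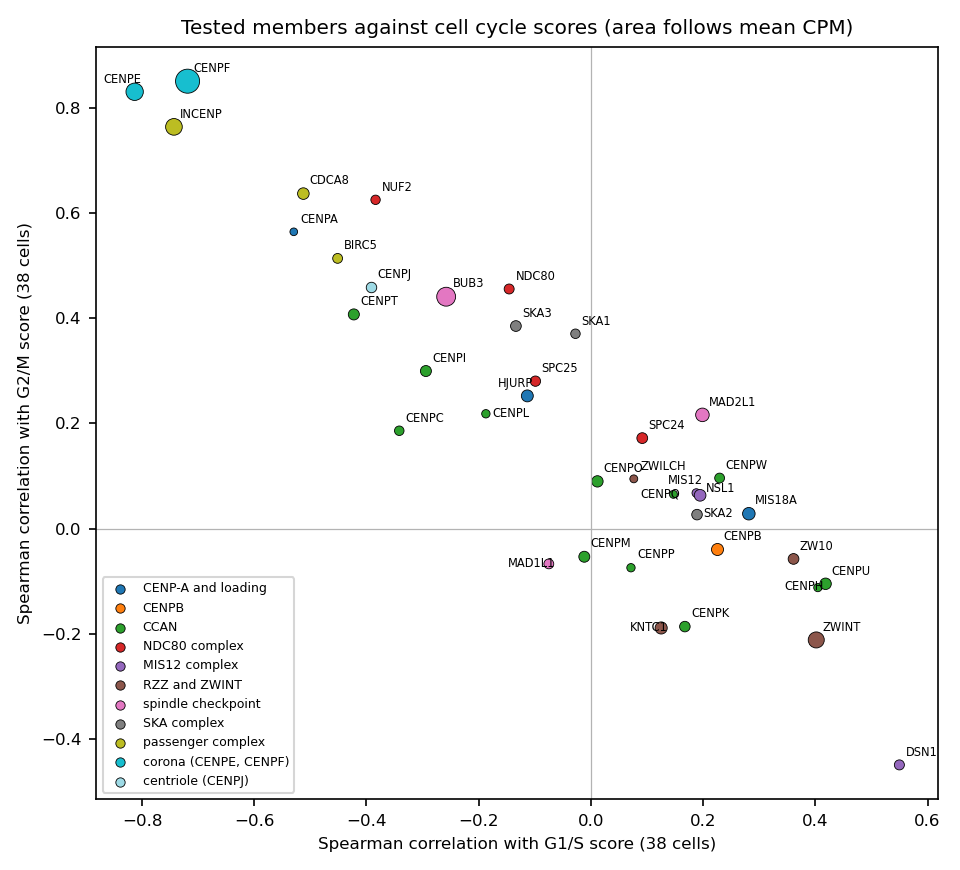
Spearman correlation over 38 single cells of each tested gene with the G2/M score (vertical) and the G1/S score (horizontal), coloured by role, with the area of a point growing with mean CPM. CENPF, CENPE and INCENP lie at the upper left, at 0.851, 0.831 and 0.764 with G2/M, and DSN1 at the lower right, at -0.449.

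The NDC80 complex, the main microtubule coupler, was positive with the G2/M score in all 4 of its genes, as were 53.4% of all tested genes. NUF2 correlated at 0.625, NDC80 at 0.456, SPC25 at 0.280 and SPC24 at 0.172. SPC24, a subunit of the end that faces the chromosome, had 7.66, 65.6 and 115 CPM in its lowest, median and highest cell, against 45.8, 75.7 and 105 CPM in the aliquots. Below every aliquot lay 10 cells, led by cells 15 and 17, and 7 lay above. Its CV was 43.9% in cells and 24.1% in aliquots (dispersion test, p = 0.0342, adjusted p = 0.493). Counting error alone would give 26.3% among the aliquots, above the 24.1% seen. With 1 library left out the ratio of CVs fell to as little as 1.70, without cell 15. The p of the dispersion test then rose to as much as 0.0620 over the libraries left out. NUF2 and NDC80, which form the microtubule-binding end, were picked out after their values were seen, and had means of 41.5 ± 19.5 and 51.7 ± 31.8 CPM in the cells, against 44.3 ± 20.1 and 52.9 ± 27.1 CPM in aliquots. The SKA complex, which stabilises the grip of NDC80 on microtubules, was mixed. SKA3 correlated with the G2/M score at 0.385 and SKA1 at 0.371, but SKA2 at 0.0266. SKA3 had 7.66, 62.2 and 137 CPM across the cells and 16.98, 67.0 and 98.2 CPM across the aliquots, with 33 cells inside the aliquots' range. SKA2 had 0, 57.5 and 138 CPM across the cells and 26.2, 70.0 and 102 CPM across the aliquots, with cell 4 at 0 and 34 cells inside the range. Neither differed in spread at an unadjusted p under 0.05 (dispersion test, p = 0.845, adjusted p = 0.974 for SKA3, and p = 0.312, adjusted p = 0.813 for SKA2).

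Of the 3 checkpoint genes, none had an unadjusted p under 0.05. BUB3, which brings the checkpoint kinases to kinetochores, had 173, 294 and 481 CPM in its lowest, median and highest cell, against 217, 282 and 410 CPM in the aliquots. Only cell 14 exceeded every aliquot, 6 cells lay below, and the CV was 22.5% in cells and 20.6% in aliquots (dispersion test, p = 0.518, adjusted p = 0.891). BUB3 correlated with the G2/M score at 0.441, MAD2L1, which forms the inhibitor of anaphase, at 0.216, and MAD1L1, its partner at kinetochores, at -0.0671.

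The RZZ complex, which recruits dynein and checkpoint proteins, and its adaptor ZWINT were positive with the G1/S score in all 4 genes. Of all 9992 tested genes, 4871 were positive with that score. ZWILCH was slightly higher with the G2/M score. ZWINT, with the highest level per length of all 41 genes at 82.9 CPM per kb of exon in cells and 70.4 in aliquots, had 76.6, 195 and 388 CPM across the cells and 101, 156 and 257 CPM across the aliquots. Cell 37 was highest, 6 cells lay above every aliquot and cell 1 lay below. ZW10 had 30.5, 63.1 and 124 CPM across the cells and 35.1, 62.3 and 108 CPM across the aliquots, with 33 cells inside the aliquots' range. The spread of neither passed (dispersion test, p = 0.593, adjusted p = 0.914 for ZWINT, and p = 0.349, adjusted p = 0.831 for ZW10). The correlation with the G1/S score was 0.402 for ZWINT, 0.361 for ZW10, 0.125 for KNTC1 and 0.0765 for ZWILCH, and with the G2/M score it was -0.212 for ZWINT, -0.0577 for ZW10, -0.189 for KNTC1 and 0.0946 for ZWILCH. The MIS12 complex, which joins the inner to the outer kinetochore, was also positive with G1/S in all 3 genes, against the same background, at 0.188 for MIS12 and 0.195 for NSL1. DSN1 stood out among them, picked after its values were seen. It correlated at 0.550 with G1/S and -0.449 with G2/M, and at 0.358 and -0.272 with exonic reads. It had 15.01, 47.5 and 147 CPM across the cells and 29.3, 56.1 and 125 CPM across the aliquots, with 32 cells inside the aliquots' range. NSL1 had 45.0, 84.8 and 132 CPM across the cells and 35.1, 83.8 and 149 CPM across the aliquots. All 38 cells lay inside the aliquots' range (dispersion test, p = 0.565, adjusted p = 0.905).

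The inner kinetochore as a group had correlations near 0 with either score. The 13 CCAN genes summed to 621 ± 83.9 CPM among the cells and 610 ± 53.8 CPM among the aliquots (SD, n = 38 and 10), and their sum correlated over the cells with the G2/M score at 0.0487 and with the G1/S score at 0.108. CENPU, a subunit that also binds the kinase PLK1, was the CCAN gene with an unadjusted p under 0.05. It had 15.3, 77.9 and 185 CPM in its lowest, median and highest cell, against 49.4, 76.2 and 87.9 CPM in the aliquots. Above every aliquot lay 16 cells, led by cells 36 and 37, and below 10, led by cells 15 and 20, with 12 inside. The CV was 48.5% in cells and 17.7% in aliquots, the largest ratio of the 39 genes at 2.74 (dispersion test, p = 0.00558, adjusted p = 0.287). Counting error alone would give a CV of 27.5% among the aliquots, so the 17.7% seen there lay below it. The CV in cells was near the median of the 39 genes, 48.4%. At 50 CPM or more the median in cells was 43.7% for the kinetochore genes and 36.7% for all tested genes, both below that of CENPU. Counting error alone would give CENPU a CV of 23.7% in cells. The ratio thus takes in both the CV in cells and the low value in 10 aliquots. CENPU correlated with the G1/S score at 0.418 and with the G2/M score at -0.105, and its exons share 11.7% of their bases with PRIMPOL on the other strand and it has 2 processed pseudogenes. CENPH, another CCAN subunit, correlated with CENPU over the cells at 0.533 and with the G1/S score at 0.405. Other CCAN genes lay on the other side: CENPT correlated with the G2/M score at 0.407 and with the G1/S score at -0.422, CENPI at 0.2997 and -0.294, and CENPC at 0.186 and -0.342. With thinned libraries CENPT had 0.193 and -0.226. CENPO had 7.66, 72.2 and 310 CPM across the cells and 39.9, 80.7 and 138 CPM across the aliquots. Cell 32 alone reached 310 CPM, the next cell, cell 17, having 140 CPM, and leaving it out lowered the ratio of CVs to 1.12, against 1.61 with it (dispersion test with it, p = 0.230, adjusted p = 0.763). CENPO shares 26.97% of its exonic bases with ADCY3.

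Among the genes of CENP-A and its loading, HJURP, the chaperone that deposits CENP-A, had 7.66, 86.1 and 223 CPM across the cells and 17.6, 75.5 and 124 CPM across the aliquots. Cell 30 was highest, 9 cells lay above every aliquot and only cell 15 below, and the spread did not pass (dispersion test, p = 0.269, adjusted p = 0.787). MIS18A, which licenses centromeres for loading, had 36.7, 106 and 180 CPM across the cells and 38.0, 63.5 and 112 CPM across the aliquots. Above every aliquot lay 14 cells and below 2, the mean of the cells was 105 ± 31.2 CPM and that of the aliquots 69.0 ± 23.3 CPM, and its spread did not pass (dispersion test, p = 0.732, adjusted p = 0.951). CENPA itself had 14.2 ± 11.3 CPM in cells and 15.7 ± 14.2 CPM in aliquots, and no barcode in 6 cells and in 1 aliquot. Its correlation with the G2/M score was 0.564, and 0.402 after a trend on depth was removed; CENPA was picked out after its values were seen. CENPB, which binds a motif of alphoid satellite DNA, had 33.2, 86.7 and 166 CPM across the cells and 52.4, 99.4 and 170 CPM across the aliquots. Inside the aliquots' range lay 34 cells (dispersion test, p = 0.925, adjusted p = 1), and CENPB correlated with the G2/M score at -0.0393 and with the G1/S score at 0.225.

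CENPJ carries the CENP name but is a centriole protein. It had 15.3, 63.6 and 147 CPM across the cells and 10.5, 51.9 and 87.9 CPM across the aliquots, with 5 cells above every aliquot and 0 below (dispersion test, p = 1, adjusted p = 1), and it correlated with the G2/M score at 0.459. CENPQ, a CCAN subunit, had the largest log2 ratio of means among the 39 genes, 1.54, at 18.1 ± 16.7 CPM in cells and 6.23 ± 5.67 CPM in aliquots, and 16 cells lay above every aliquot. It passed the filter through the level of the cells and was picked out after its values were seen, and no test of means was made. OIP5, a loading factor bound to MIS18A, had 8.66 ± 9.07 CPM in cells and 7.54 ± 9.35 CPM in aliquots. It shares 38.0% of its exonic bases with OIP5-AS1 on the other strand. CENPN, which reads the CENP-A nucleosome, had 2 exonic barcodes in 1 of 38 cells and 0 in the 10 aliquots, which allows up to 1.58 CPM over the pooled aliquots, for counting error only. Its introns held 292 barcodes in cells and 93 in aliquots. Its exons share 12.8% of their bases with CMC2, 7.32% with AC092718.8 and 4.71% with AC092718.2, each on the other strand. What these overlaps did to the exonic counts of OIP5 and CENPN was not tested.

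Exonic and intronic signal were spread unevenly over the genes. The share of a gene's barcodes in introns over the cells was 0% for CENPB, 2.41% for ZWINT and 4.35% for BUB3, but 91.8% for MAD1L1 and 96.5% for CENPP, with a median of 41.9% over the 39 tested genes in cells and 47.2% in aliquots. CENPP shares 38.0% of its exonic bases with IPPK on the other strand, and whether counting used strand is not given. The summed intronic level of the 41 genes in CPM of all intronic barcodes was 3009 ± 515 among the cells and 3206 ± 164 among the aliquots. It correlated with the G2/M score at 0.0826 over 38 cells, where the exonic sum had 0.879. The intronic and exonic sums weigh the genes differently. The largest parts of the intronic sum in cells were CENPP at 589 CPM and MAD1L1 at 490 CPM, with G2/M correlations of -0.0747 and 0.0152. CENPE and CENPF together made up 139 CPM of it, and their intronic correlation was 0.473.

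Across pairs of genes, the correlation in the cells was low on average, with high values in a few genes. The mean Spearman correlation over the 741 pairs was 0.0749 in the 38 cells and -0.0090 in the 10 aliquots, against 0.0034 and 0.00032 over all pairs of tested genes. Without cell 15 it was 0.0556, and with every library thinned to the same depth 0.0458. The G2/M list had 0.322 and the G1/S list 0.360 in the cells. The highest pairs were CENPE with CENPF at 0.803, INCENP with CENPE at 0.780, INCENP with CDCA8 at 0.646 and INCENP with CENPF at 0.642, and the lowest pair reached -0.606. Pairs within a role group had a mean of 0.0726 over 94 pairs, and pairs across groups 0.0752 over 647 pairs. By complex the mean in cells was 0.472 for the passenger complex, 0.252 for SKA, 0.235 for NDC80, 0.169 for RZZ with ZWINT, 0.131 for the checkpoint, 0.0548 for MIS12, 0.0182 for CENP-A and its loading and 0.0123 for CCAN. In the aliquots it was 0.156 for the passenger complex, -0.0424 for SKA, 0.0929 for NDC80, 0.210 for RZZ with ZWINT, -0.265 for the checkpoint, 0.107 for MIS12, 0.0222 for CENP-A and its loading and -0.0325 for CCAN. RZZ with ZWINT, MIS12 and CENP-A thus had higher means in the aliquots than in the cells, each over 3 to 6 pairs. These are correlations over cells that share a clone, a protocol and differences of depth, and a gene's correlation with exonic barcodes ranged from -0.309 to 0.418.

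**Figure D5:**
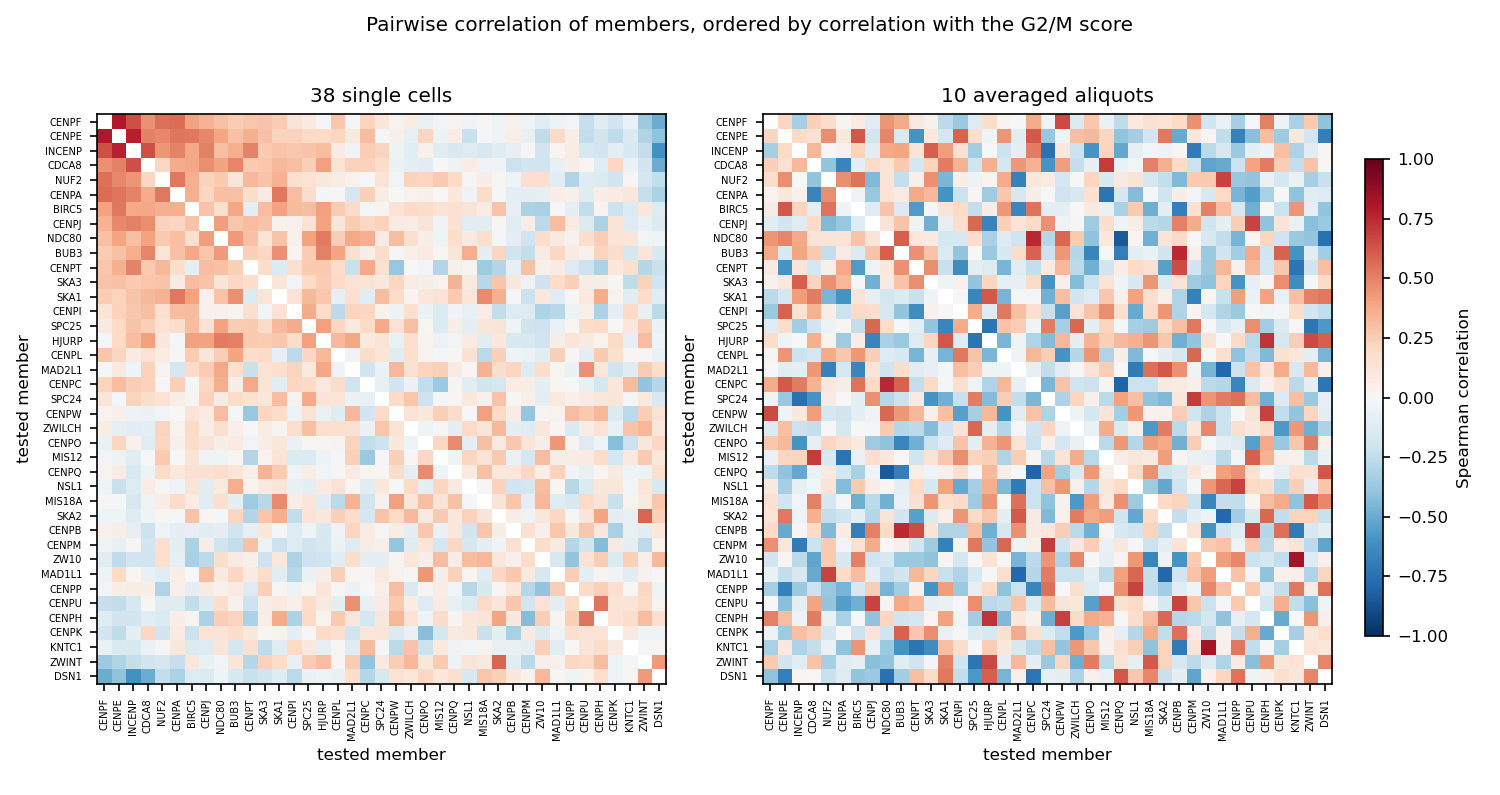
Spearman correlation of every pair of the 39 tested genes over the 38 single cells (left) and over the 10 aliquots (right), both in the order of the correlation with the G2/M score. In the cells a block of positive values with CENPF, CENPE and INCENP stands at the upper left, and in the aliquots, where n = 10, high and low values are scattered.

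Of the 39 genes, 18 were positive with G2/M and negative with G1/S, 9 the other way round, 10 positive with both and 2 negative with both. Those positive with G2/M made up 71.8%, against 53.4% of all tested genes. Those positive with G1/S were 19 of 39, against 4871 of all 9992 tested genes. The G2/M correlation exceeded the G1/S one in 23 genes, or 59.0%, against 52.1% of all tested genes, and the median was 0.172 with G2/M and -0.0117 with G1/S. Over the 38 cells the G2/M and G1/S scores themselves correlated at -0.699. With the mean z-score of the 39 genes, RACGAP1, a regulator of cytokinesis, was the gene outside the group with the highest correlation over 38 cells, at 0.738. It was followed by KPNA2 at 0.641, UBE2C at 0.640, TOP2A at 0.631, RNF26 at 0.624, NCAPG at 0.622, TUBB at 0.606, FAM83D at 0.606, MKI67 at 0.595 and PPIL4 at 0.574. UBE2C, TOP2A and MKI67 belong to the G2/M list. That z-score correlated with exonic barcodes at 0.429, and the part of depth in these values was not tested.

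Of 20 other kinetochore genes, 16 were tested and 0 called by the dispersion test or limma, with 3 of 16 more spread in cells at an unadjusted p under 0.05 in the dispersion test (background 6.86%) and 3 in limma (background 3.67%), and 0 more spread in aliquots in either (backgrounds 2.38% and 3.54%). PLK1, a mitotic kinase, had 102, 414 and 869 CPM across the cells and 311, 436 and 526.3 CPM across the aliquots. Its CV was 55.5% in cells and 15.9% in aliquots (dispersion test, p = 0.000181, adjusted p = 0.0606). BUB1, a checkpoint kinase, had 59.0, 180 and 370 CPM across the cells and 182, 265 and 299 CPM across the aliquots (p = 0.00363, adjusted p = 0.250 in the dispersion test). CDC20, the target of the checkpoint, had 30.7, 131 and 321 CPM across the cells and 123, 148 and 262 CPM across the aliquots (p = 0.0358, adjusted p = 0.499 in the dispersion test). All 3 ranges of the aliquots lay inside those of the cells. This cannot show a larger spread, as the cells outnumber the aliquots and the 3 genes were picked by their p. Among genes with a larger p, KIF2C (dispersion test, p = 0.662, adjusted p = 0.933) was nested as well. It had 4.82 to 140 CPM in cells and 10.5 to 119 CPM in aliquots. AURKB (dispersion test, p = 0.595, adjusted p = 0.914) was not nested.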

How the data were processed

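The sources describe 91 samples; the 48 with files, 38 single cells and 10 averaged aliquots of HEK293T clone1, were used, and the other 43 were not analysed here. The labels gave each library its group and number. The deposited files hold whole-number counts of reads and of random barcodes in exons and introns per Ensembl gene, not normalized, per the file headers. Tools named in the submitters' processing notes are TopHat and HTSeq, with build hg19; neither versions nor the strand setting is given. Names, exon lengths and exonic overlaps came from GENCODE by identifier. The lengths and overlaps were computed on a newer build than the hg19 of the counts. The only coordinates printed are those of the RefSeq promoters, also on the newer build. Names matched 52338 of 57820 identifiers.

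Exonic barcodes were scaled by TMM factors (edgeR 4.0.16) to CPM, and log2 CPM used a prior count of 1. The dispersion test took Cox-Reid adjusted likelihoods over a grid of 60 dispersions between 0.001 and 20, two-sided, and was tested on simulated data; the aliquot dispersions of CENPU, SPC24, CENPH and ZW10 sat at the lowest value of 0.001. Limma 3.58.1 in R 4.3.3 compared absolute deviations of log2 CPM from the group median. An earlier analysis of these data had limma as its main test; the dispersion test was put first here with that result known. The 41 genes, the lists and the tests were all chosen with earlier results of these data known.

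Values in full are given, in each role group, for the tested gene with the smallest p and the one with the highest mean CPM, and for the 6 smallest p over all. Other correlations complete a role group. Other settings were DESeq2 1.42.0 size factors, library totals, filters of 1 and 50 CPM, exonic reads, thinning to 128322 barcodes, removed trends, the replicate number as a block and each library left out. A value with no test was called moved where it changed by more than its jackknife standard error over libraries, a rule set after the values were seen. Library pairs differed by a chi-square per degree of freedom of at least 2.16 in cells and 2.09 in aliquots, so none was counted as a duplicate. Intervals and limits cover counting error only.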

Additional observations from a re-analysis of the deposited data

Results flagged for a closer look

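Over the 10 aliquots, each of the 41 genes with any barcode, the summed level and the role sums were examined for a library whose gap to its nearest neighbour exceeded 0.466 of the range. This was so in 4 of 50 sets, and chance flags about 1 in 20. INCENP had 71.8 CPM in aliquot 10, where the next lowest aliquot had 173 CPM, and its ratio of CVs without that aliquot is given with its other values. CENPM, a CCAN subunit, had 168 CPM in aliquot 10, where the next had 95.4 CPM. SKA1 had 125 CPM in aliquot 9, where the next had 73.6 CPM. OIP5, which was not tested, had 29.8 CPM in aliquot 5, where the next had 14.1 CPM. What sets these libraries apart was not tested.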

How the results depend on the processing

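No kinetochore gene was called as more spread in cells under any setting in which calls were made, each library left out included, and none as more spread in aliquots under those settings other than the removed trend on cell number, where that direction was not counted. No calls were made with the trends on depth and intronic share removed. The count at an unadjusted p under 0.05, 5 genes, was 3 with exonic reads, 2 with thinned libraries, 3 with limma, 3 once a trend on cell number had been taken out and 3 to 6 with each library left out; with size factors of DESeq2, library totals or either other filter it was 5. With the replicate number as a block (limma, cells and aliquots 1 to 10) it was 2 and the count called 0. The numbers do not pair the libraries: same-numbered cells and aliquots correlated at -0.0434 to 0.0460.

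The mean pairwise correlation in cells was 0.0458 after thinning, 0.0478 with trends on depth and intronic share removed, and 0.0556 to 0.0780 with each library left out; in aliquots it was -0.0213 with those trends removed and -0.0188 to -0.0059 with each left out. The log2 ratio of summed levels ran from -0.03 to 0.01 and the median ratio of CVs from 1.07 to 1.17 with each library left out. The count of genes higher with G2/M, 23, was 20 to 23 with each library left out, 21 to 23 with other scaling, exonic reads or thinning, and 24 with the trend on cell number removed. Of the correlations above 0.4 in size with either score, 3 moved with exonic reads, 2 with thinning and 2 with a trend on depth removed. All 23 stayed the same with the trend on cell number removed. With exonic reads the G2/M correlation was 0.265 for CENPJ and 0.321 for BUB3.

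Some ratios near 1, none called, changed side. With exonic reads the ratio of CVs was 1.25 for MIS18A, 1.22 for CENPB and 0.963 for SKA2, and with thinned libraries 1.10 for CENPB and 0.991 for ZWINT. The difference in deviation was 0.0028 for CENPB with limma, 0.25 for MIS18A and 0.0439 for CENPB with the block, and -0.0034 for ZWINT with the trend removed. With 1 library left out, BUB3 ran from 0.981 to 1.41, CENPB from 0.902 to 1.15, MIS18A from 0.820 to 1.03 and SKA3 from 0.878 to 1.24. The cause was not tested. The median gene had 15.2 barcodes per cell and 12.8 per aliquot, which limits the precision of each value.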
